A study of Homo sapiens with 12 samples.

Results

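The 8 genes described here encode chemokines and cytokines listed together as induced by type I interferon, although CXCL8 among them did not rise here. They are CXCL10, CXCL11, CCL2, CCL5, CXCL8, IL6, IL15 and TNFSF13B, and they were taken by symbol from the 60669 gene identifiers of the count table, where all 8 were found and all 8 entered the test over 16393 genes. RNA was measured in 12 libraries of HT1080, a human fibrosarcoma line that here stably expressed dCas9, the Cas9 without cutting activity that is used in CRISPR interference. A second construct gave the cells either a guide RNA against GFP, the control (GFP cells), or a guide RNA against the LTR8B element in the first intron of SP140 (LTR8B cells). Both lines carried dCas9 and a guide under drug selection, and the guide target is the only difference between them that the labels name. Differences that the labels do not name were not tested. Each line was left untreated or was given 10 U/mL of interferon beta (IFNB) for 4 h, with 2 libraries each of GFP untreated and GFP IFNB and 4 each of LTR8B untreated and LTR8B IFNB. The sources used here do not give whether each line was a clone or a pool, or whether the replicates were separate cultures. The p-values therefore measure only how these libraries vary, which may be technical.

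Type I interferon binds the receptor IFNAR, which activates factors of the STAT family. With IRF9 these form ISGF3, a complex that binds interferon-stimulated response elements in promoters, and IRF1, itself induced by interferon, is a further activator of many chemokine genes. Several inflammatory genes, with CXCL8 and IL6 as textbook cases, depend instead on NF-kB and AP-1. Chemokines are secreted proteins that draw leukocytes along a gradient. CXCL10 and CXCL11 draw activated T and NK cells through CXCR3, CCL2 draws monocytes through CCR2, CCL5 draws T cells and monocytes through receptors such as CCR1, and CXCL8 draws neutrophils through CXCR1 and CXCR2. IL15 sustains NK and CD8 T cells, TNFSF13B (BAFF) sustains B cells, and IL6 is a pleiotropic cytokine of the acute phase.

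The RefSeq promoter table of GRCh38.p14 held windows for 5 of the 8 genes (CXCL8, CXCL10, CXCL11, IL6 and TNFSF13B, the last with 2 windows), each with 250 bases before the transcript start. They are shown as a description of the sequence, and no link between the motifs and the IFNB response was tested. Both strands were searched for an interferon response core, GAAANNGAAA, and an NF-kB core, GGNNTTNCC, where N is any base. The letters of both motifs were chosen with these sequences in view. The interferon core was in 3.02% and the NF-kB core in 14.98% of the 35116 windows of the same length. In the sequences below, given 5′ to 3′ on the strand of the gene, capitals mark a match to either core.
CXCL10 (chr4:76023498-76023747, minus strand): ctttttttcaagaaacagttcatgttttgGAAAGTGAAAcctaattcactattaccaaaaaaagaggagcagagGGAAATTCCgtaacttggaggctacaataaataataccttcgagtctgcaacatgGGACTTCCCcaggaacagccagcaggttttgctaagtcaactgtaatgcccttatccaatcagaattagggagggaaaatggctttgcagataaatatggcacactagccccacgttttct
CXCL8 (chr4:73740319-73740505, plus strand): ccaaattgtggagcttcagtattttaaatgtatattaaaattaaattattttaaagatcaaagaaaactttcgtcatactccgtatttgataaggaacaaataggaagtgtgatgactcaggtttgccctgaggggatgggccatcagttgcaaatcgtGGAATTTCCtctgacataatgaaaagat
IL6 (chr7:22726950-22727146, plus strand): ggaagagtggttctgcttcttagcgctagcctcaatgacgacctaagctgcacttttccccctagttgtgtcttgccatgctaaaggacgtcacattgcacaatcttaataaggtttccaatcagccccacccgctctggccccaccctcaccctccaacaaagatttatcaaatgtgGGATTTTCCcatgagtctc
CXCL11 (chr4:76036126-76036155, minus strand): actcaaagagGGAAATTCCtgtgccataaa
TNFSF13B (chr13:108269637-108269666, plus strand): tacaaaaactGAAAGTGAAAtgaggaagac

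CXCL10 held both cores, the interferon core GAAAGTGAAA at -221 and NF-kB cores at -176 (on the opposite strand) and -121, with positions counted back from the transcript start and given for the first base of the match on the strand of the gene. TNFSF13B held the same GAAAGTGAAA at -71 in the window of its second transcript start, at a place that lies in an exon of another transcript. CXCL8, IL6 and CXCL11 each held 1 NF-kB core, at -91, -72 and -75, and no match to the interferon core in these letters. The match of CXCL11 lies in an exon of another transcript and is on the opposite strand. The window of the first TNFSF13B transcript start held no match to either core. These matches are descriptions of the sequence and no binding was measured. The windows of CXCL8 and IL6 are shown without bases that belong to exons, those of CXCL11 and of the second TNFSF13B start only by the 30 bases around the match, and that of the first TNFSF13B start is not shown.

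On hg38 with GENCODE release 29, 4 of the genes lie on chromosome 4. CXCL10 (76021117 to 76023497, minus strand) and CXCL11 (76033682 to 76041415, minus strand) are neighbours 10185 bases apart, CXCL8 (73740506 to 73743716, plus strand) belongs to the same family of CXC genes on that arm, and IL15 (141636599 to 141733987, plus strand) lies apart from them. CCL2 (34255218 to 34257203, plus strand) and CCL5 (35871491 to 35880793, minus strand) lie on chromosome 17, IL6 (22725884 to 22732002, plus strand) on chromosome 7, and TNFSF13B (108251240 to 108308484, plus strand) on chromosome 13. IL6 shares 46 exon bases with STEAP1B (5 to 17 counts per library) and 428 with AC073072.1 (0 to 4 counts), both on the opposite strand. Whether counting used strand is not given in the sources used here. If it did not, reads from the shared exon bases may not be told apart.

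Total counts per library ran from 12404270 to 28801579. Levels are given as CPM, counts per 1000000 after TMM scaling, and a count of 0, which allows up to 3 counts, corresponds to at most 0.100 to 0.244 CPM depending on the library. SP140, the targeted gene, was at 29.8 to 32.04 CPM in the 4 GFP libraries and at 0.515 to 1.84 CPM in the 8 LTR8B libraries, so each library carried the guide effect its label names. Of 12 mesenchymal markers 9 had a mean over all libraries of at least 1 CPM, while COL3A1 and THY1 were near 0. The summed level of the 12 was 3820 to 4532 CPM per library. Of 14 leukocyte markers 1 (CSF1R) had a mean over all libraries of at least 1 CPM, CD2 had a count of 0 in all libraries, and PTPRC, CD14 and MS4A1 were near 0. The summed level of the 14 was 10.3 to 11.97 CPM in GFP untreated, 9.55 to 11.0 in GFP IFNB, 7.52 to 8.67 in LTR8B untreated and 7.15 to 9.35 in LTR8B IFNB libraries. In these bulk libraries more cells that express a gene and more RNA per cell cannot be told apart.

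The first comparison asked which of the 8 genes changed with 4 h of IFNB. CXCL10 and CXCL11 went from at most 3 counts per untreated library to at least 6.35 CPM in every IFNB library. TNFSF13B, IL15 and CCL2 rose in both lines, CCL5 and IL6 rose in LTR8B cells and had the same sign without passing the threshold in GFP cells, and CXCL8, the neutrophil chemokine, was lower with IFNB in both lines without passing the threshold in either. The responses spanned from 143.7-fold and 443-fold for CXCL10 in the GFP and LTR8B lines to 1.55-fold and 1.65-fold for IL6. The threshold was an edgeR quasi-likelihood adjusted p under 0.05 over the 16393 genes. CXCL10 and CXCL11 passed the filter on low counts only through their IFNB libraries, so they had to differ, and they are described by their counts with no test. The other 6 passed the filter on the untreated libraries alone. Of these 6, 3 passed the threshold in GFP cells, against 3.2% of all tested genes, and 5 in LTR8B cells, against 4.5%. All of these were higher, as were 3.06% and 4.01% of all tested genes. The genes were chosen as ones induced by IFNB, so these counts describe the choice as well as the response.

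**Figure D1:**
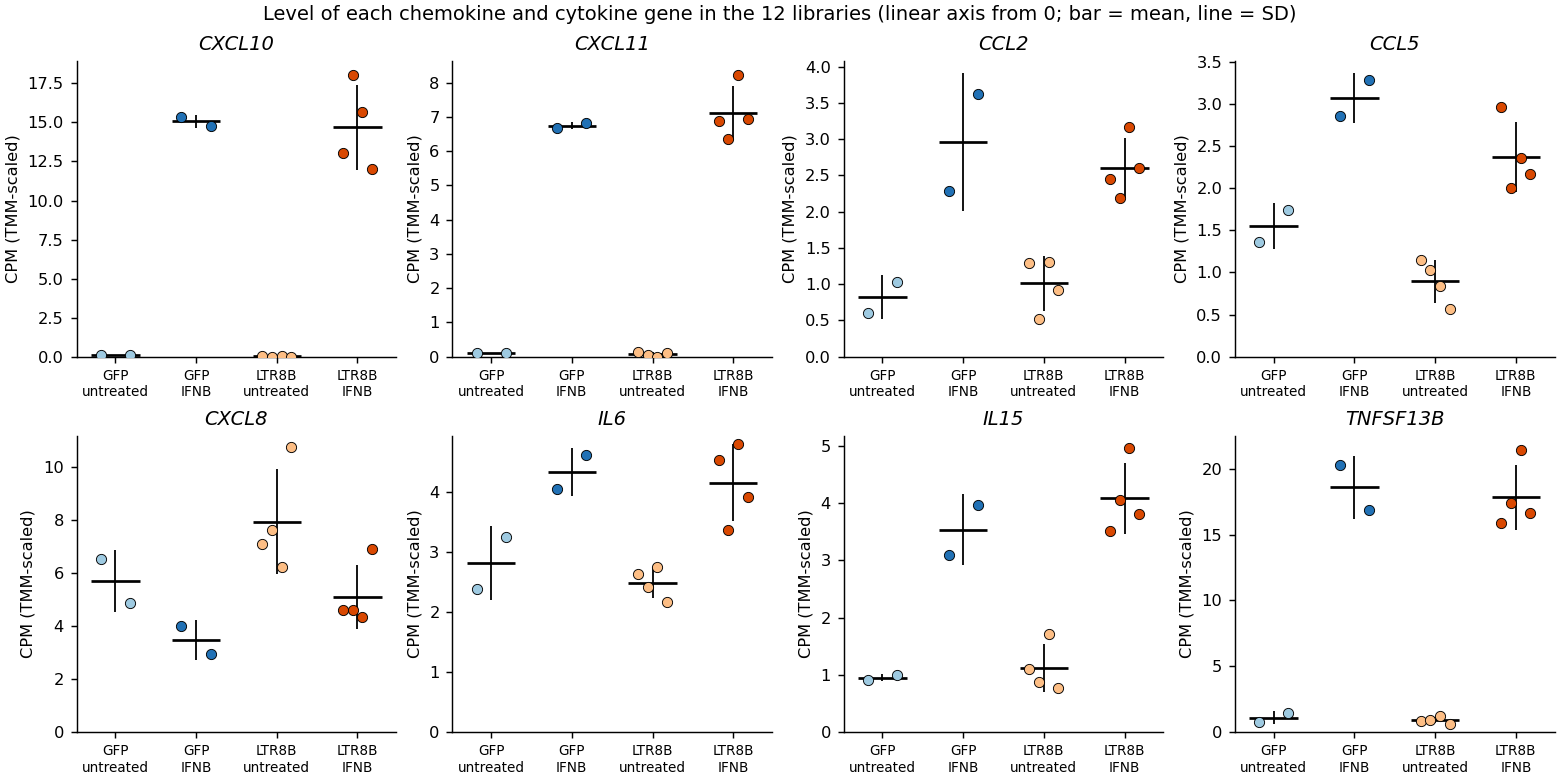
Level of each of the 8 genes in CPM (vertical axis, linear, from 0; each panel has its own scale) in the GFP untreated, GFP IFNB, LTR8B untreated and LTR8B IFNB libraries. Points are single libraries, horizontal bars are group means and vertical lines are 1 SD. In 7 panels all IFNB points of a line lie above all its untreated points, and in the CXCL8 panel the IFNB points lie lower, with the LTR8B groups overlapping.

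CXCL10 was nearly silent without IFNB. In untreated GFP cells it had 3 and 2 counts, or 0.113 and 0.0942 CPM, and in untreated LTR8B cells 1, 0, 2 and 0 counts, or 0.0461, 0, 0.0670 and 0 CPM. With IFNB it reached 15.4 and 14.8 CPM in GFP cells (322 and 297 counts) and 13.01, 18.03, 15.7 and 12.03 CPM in LTR8B cells (255, 386, 193 and 227 counts). Every untreated library was at or under the level of 3 counts and every IFNB library was far above it. The ratio of summed counts, scaled to library size, was 143.7 in GFP cells (619 against 5 counts, exact 95% interval 61.2 to 444) and 443 in LTR8B cells (1061 against 3 counts, exact 95% interval 151 to 2152). These intervals cover counting error only and overlap each other.

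CXCL11, the partner ligand of CXCR3 from the neighbouring gene, showed the same pattern of near silence and strong response. It had 3 and 2 counts in untreated GFP cells (0.113 and 0.0942 CPM) and 3, 1, 0 and 2 counts in untreated LTR8B cells (0.138, 0.0515, 0 and 0.103 CPM). With IFNB the GFP libraries reached 6.67 and 6.81 CPM and the LTR8B libraries 6.89, 6.35, 8.21 and 6.94 CPM. The 6 IFNB libraries lay close together, and none of the untreated libraries exceeded 3 counts. The ratio of summed counts was 64.3 in GFP cells (277 against 5 counts, exact 95% interval 27.2 to 199.6) and 105 in LTR8B cells (503 against 6 counts, exact 95% interval 47.9 to 288). Per kilobase of transcript, the level of CXCL10 over that of CXCL11 was 2.25 ± 0.0943 in GFP IFNB (SD, n = 2) and 2.11 ± 0.508 in LTR8B IFNB libraries (SD, n = 4), and at least 1.75 in each of the 6.

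TNFSF13B, which encodes the B cell survival factor BAFF, rose from a low but countable level. The GFP libraries held 0.718 and 1.41 CPM without IFNB and 20.3 and 16.9 CPM with it. The LTR8B libraries held 0.784, 0.876, 1.17 and 0.617 CPM without IFNB and 15.9, 17.4, 21.5 and 16.7 CPM with it. All treated libraries were at least 15.9 CPM and all untreated ones at most 1.41 CPM. The log2 fold change was 4.16 in GFP cells (SE 0.25, edgeR adjusted p = 1.80e-09), or 17.9-fold, and 4.31 in LTR8B cells (SE 0.18, edgeR adjusted p = 8.13e-12), or 19.9-fold. Among the genes that rose, ordered by fitted log2 fold change, it was number 47 of 502 in GFP and 41 of 658 in LTR8B cells.

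IL15, the survival cytokine of NK and memory CD8 T cells, also rose in both lines. GFP cells had 0.907 and 0.989 CPM without IFNB and 3.10 and 3.98 CPM with it. LTR8B cells had 1.11, 0.876, 1.71 and 0.771 CPM without IFNB and 3.52, 4.06, 4.96 and 3.82 CPM with it. The groups did not overlap in either line, and LTR8B untreated replicate 3 was the highest of the untreated libraries. The log2 fold change was 1.90 in GFP (SE 0.32, edgeR adjusted p = 0.00101) and 1.81 in LTR8B cells (SE 0.22, edgeR adjusted p = 1.92e-05), which is 3.72-fold and 3.52-fold. In the order by fitted log2 fold change it was number 137 of the 502 genes that rose in GFP and 142 of the 658 in LTR8B cells, so that many genes responded more.

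CCL2, the monocyte chemokine MCP-1, rose in both lines. The GFP libraries held 0.605 and 1.04 CPM without IFNB and 2.29 and 3.63 CPM with it. The LTR8B libraries held 1.29, 0.515, 1.31 and 0.926 CPM without IFNB and 2.45, 2.20, 3.17 and 2.60 CPM with it. The groups did not overlap in either line, but the 2 GFP libraries of each treatment lay well apart. The log2 fold change was 1.86 in GFP cells (SE 0.38, edgeR adjusted p = 0.00683) and 1.32 in LTR8B cells (SE 0.27, edgeR adjusted p = 0.00494). The call in GFP cells rested on single libraries. Without GFP untreated replicate 1 the log2 fold change was 1.51 (edgeR adjusted p = 0.178) and without GFP IFNB replicate 2 it was 1.49 (edgeR adjusted p = 0.148).

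CCL5, the T cell and monocyte chemokine RANTES, rose in LTR8B cells. GFP cells had 1.36 and 1.74 CPM without IFNB and 2.86 and 3.28 CPM with it. LTR8B cells had 1.15, 1.03, 0.837 and 0.566 CPM without IFNB and 2.96, 2.01, 2.36 and 2.17 CPM with it. The groups did not overlap in either line, and all 4 untreated LTR8B libraries were below both untreated GFP libraries. The log2 fold change was 0.99 in GFP cells (SE 0.29), which did not pass the threshold (edgeR adjusted p = 0.0883), and 1.40 in LTR8B cells (SE 0.23), which did (edgeR adjusted p = 5.28e-04). The difference between the responses of the lines was 0.41 (95% interval -0.37 to 1.19, edgeR adjusted p = 0.996), so a larger response in LTR8B cells was not shown.

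IL6 had the smallest positive response. GFP cells had 2.38 and 3.25 CPM without IFNB and 4.05 and 4.62 CPM with it. LTR8B cells had 2.63, 2.42, 2.75 and 2.16 CPM without IFNB and 4.54, 3.36, 4.80 and 3.92 CPM with it. Treated libraries were above untreated ones in both lines, with a narrow gap. The log2 fold change was 0.63 in GFP cells (SE 0.22, edgeR adjusted p = 0.206) and 0.72 in LTR8B cells (SE 0.16, edgeR adjusted p = 0.0108), or 1.55-fold and 1.65-fold. IL6 was number 323 of the 658 genes that rose in LTR8B cells.

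CXCL8, which encodes interleukin-8, was the 1 gene of the 8 with a negative estimate in both lines. The GFP libraries held 6.50 and 4.85 CPM without IFNB and 4.00 and 2.93 CPM with it. The LTR8B libraries held 7.10, 7.62, 6.23 and 10.7 CPM without IFNB and 4.59, 4.58, 4.31 and 6.89 CPM with it. The GFP groups did not overlap, while in LTR8B cells IFNB replicate 4 lay above untreated replicate 3, and replicate 4 was the highest library of both LTR8B groups. The log2 fold change was -0.71 in GFP cells (SE 0.28, edgeR adjusted p = 0.304) and -0.62 in LTR8B cells (SE 0.19, edgeR adjusted p = 0.0933). Some other settings moved the LTR8B value past the threshold and others did not. DESeq2 gave an adjusted p of 0.0461, edgeR without the filter on low counts gave 5.61e-04, and edgeR gave 0.0417 without LTR8B untreated replicate 3 and 0.0176 without LTR8B IFNB replicate 4. Without the filter the GFP value passed too (edgeR adjusted p = 0.0207). That fit also called 325 of 35398 genes in the untreated guide comparison, against 59 of 16393 with the filter. The LTR8B value did not pass with RLE scaling, with limma-voom or without any other single LTR8B library. Without LTR8B IFNB replicate 1 its edgeR adjusted p was 0.257. A replicate block, given at the end, called CXCL8 in both lines, though no label pairs the numbers.

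**Figure D2:**
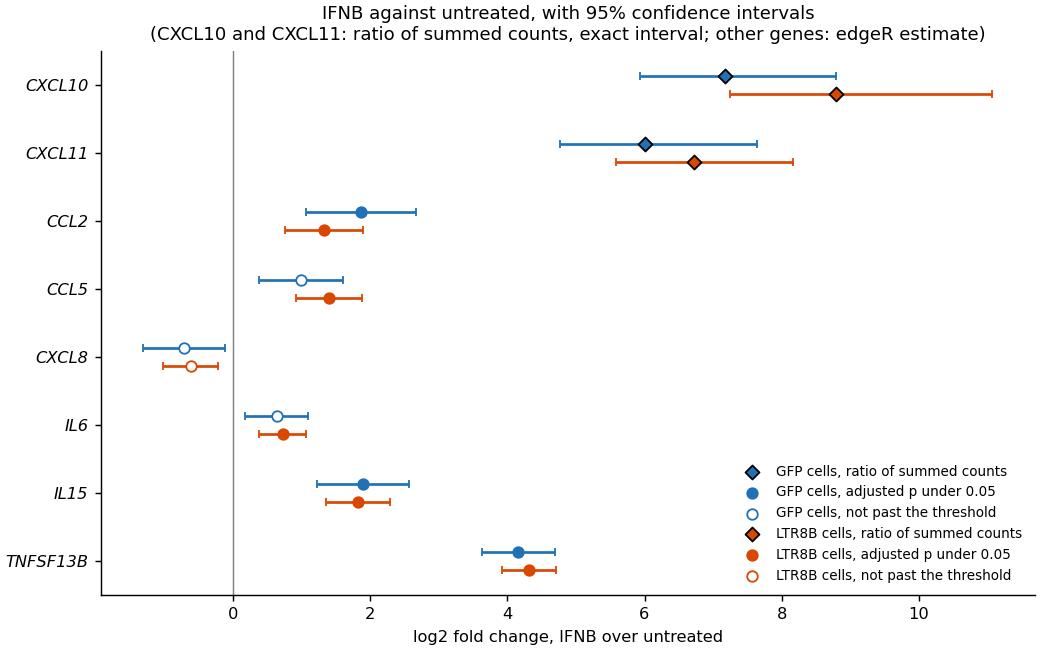
Log2 fold change with IFNB over untreated (horizontal axis) for the 8 genes in GFP cells (blue) and LTR8B cells (orange), with 95% confidence intervals; filled circles passed the edgeR threshold and open circles did not. For CXCL10 and CXCL11 the diamond is the ratio of summed counts with its exact interval, with no test, and for the other genes the circle is the edgeR estimate. The intervals of the lines overlap for every gene, and only CXCL8 lies below 0.

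Groups that do not overlap were common among all genes where groups hold 2 libraries. Of the 6 genes other than CXCL10 and CXCL11, 5 were higher in both IFNB libraries than in both untreated ones in GFP cells, against 22.6% of all tested genes, and CXCL8 was lower in both, against 21.9%. In LTR8B cells, with 4 libraries against 4, 5 of the 6 were higher without overlap, against 6.16% of all tested genes.

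The levels of the genes were set side by side per kilobase, as CPM divided by the median length of the coding transcripts of each gene in GENCODE. Untreated cells were led by CXCL8, at 4.72 ± 0.969 CPM per kb in GFP (SD, n = 2) and 6.59 ± 1.64 in LTR8B cells (SD, n = 4), followed by IL6 at 3.68 ± 0.804 and 3.25 ± 0.336. The libraries of CXCL8 and IL6 overlapped in GFP cells and did not in LTR8B cells. CCL5, CCL2, IL15 and TNFSF13B came next with group means of 0.334 to 1.37 CPM per kb, and CXCL10 and CXCL11 came last with at most 0.0883, overlapping each other. Among the middle genes CCL5 and CCL2 overlapped in GFP cells, and CCL2, IL15 and CCL5 overlapped in sequence in LTR8B cells, while TNFSF13B lay apart from its neighbours in both lines.

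With IFNB the order was led by CXCL10, at 12.8 ± 0.351 CPM per kb in GFP (SD, n = 2) and 12.5 ± 2.30 in LTR8B cells (SD, n = 4), and its libraries lay above those of every other of the 8 genes. TNFSF13B followed at 7.21 ± 0.932 and 6.92 ± 0.963, then CXCL11 at 5.68 ± 0.0821 and 5.98 ± 0.666, and IL6 at 5.67 ± 0.529 and 5.43 ± 0.842. TNFSF13B and CXCL11 overlapped in LTR8B cells alone, and CXCL11 and IL6 overlapped in both lines. CCL2, CXCL8, CCL5 and IL15 filled the last places with group means between 1.91 and 4.24 CPM per kb, each overlapping the next in the order in both lines. With the longest coding transcript as the length, a setting chosen after seeing the data, CXCL10 was still first with IFNB and CXCL8 first without it, while IL6 moved from place 4 to place 6 in LTR8B cells with IFNB.

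Summed over the 8 genes, the level went from 11.98 ± 0.671 CPM per kb untreated to 43.1 ± 0.638 with IFNB in GFP cells (SD, n = 2 each) and from 13.1 ± 0.958 to 43.2 ± 3.28 in LTR8B cells (SD, n = 4 each). The summed level without IFNB was mostly that of CXCL8 and IL6. CXCL8 made up 39.7% ± 10.3 of the sum in untreated and 6.71% ± 1.56 in IFNB-treated GFP cells (SD, n = 2 each), and 50.1% ± 9.77 and 9.90% ± 2.78 in LTR8B cells (SD, n = 4 each).

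**Figure D3:**
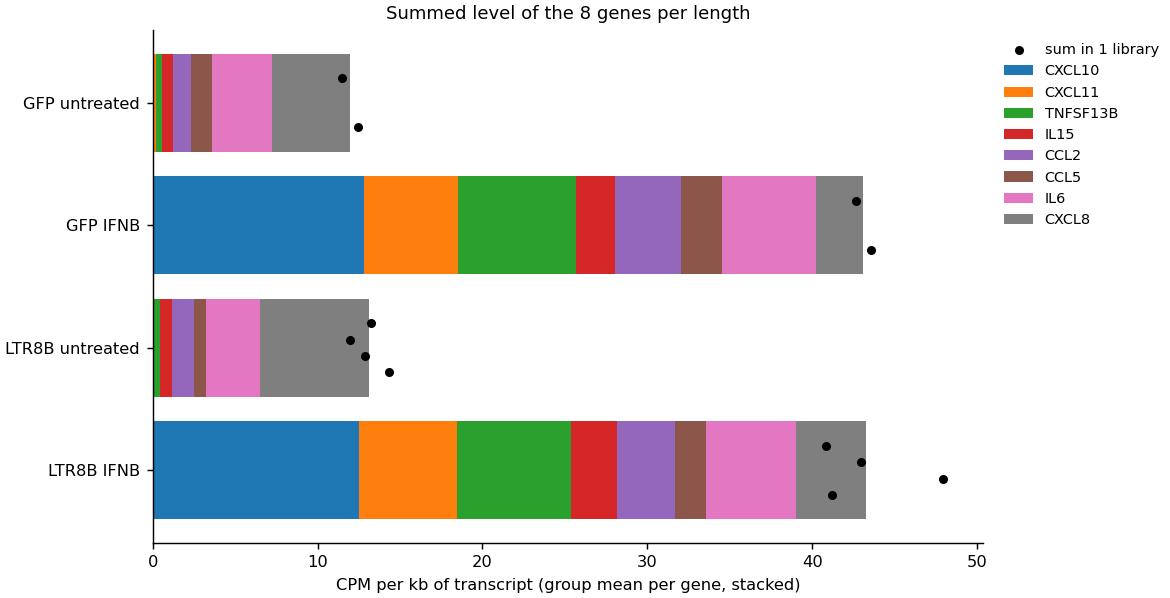
Summed level of the 8 genes in CPM per kilobase of transcript (horizontal axis from 0) in each group; coloured segments are group means of single genes and black points are the sums in single libraries. CXCL8 (grey) and IL6 (pink) fill most of the untreated bars, with sums of 11.98 and 13.1, and CXCL10 (blue), CXCL11 (orange) and TNFSF13B (green) fill most of the IFNB bars, with sums of 43.1 and 43.2.

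The second comparison asked whether the guide against LTR8B, which lowers SP140, changed these genes. None of the 8 passed the threshold in untreated cells, where 0.36% of all tested genes did, with IFNB, where 0.354% did, or averaged over both treatments, where 2.14% did. At an unadjusted edgeR p under 0.05 there was 1 gene untreated (CCL5), against 11.2% of all tested genes, 1 with IFNB (CXCL8), against 9.48%, and 2 averaged (CCL5 and CXCL8), against 15.8%. DESeq2 and limma-voom also called none of the 8 in any of these, and edgeR without the filter on low counts called 1, CXCL8, averaged over the treatments (adjusted p = 0.00363). Some cell type markers were also lower with the LTR8B guide, averaged over the treatments. Among 10 tested mesenchymal markers, with a median log2 difference of -0.21, COL1A1 (-0.64, edgeR adjusted p = 0.0492) and SPARC (-0.22, edgeR adjusted p = 0.0289) passed the threshold. So did 1 of 5 tested leukocyte markers, CSF1R (-0.57, edgeR adjusted p = 0.00486), and 1 of 4 endothelial markers, CDH5 (-1.71, edgeR adjusted p = 0.0269), and none was higher past the threshold. The leukocyte and endothelial markers were not lower as sets. Positive estimates were found for 2 of the 5 leukocyte markers (median -0.09) and 2 of the 4 endothelial markers (median 0.07). The call of COL1A1 was lost without any single one of the 12 libraries, that of SPARC without replicate 2 of either GFP group, replicate 4 of either LTR8B group or LTR8B IFNB replicate 2, and that of CSF1R without GFP untreated replicate 2 (adjusted p = 0.0682, edgeR). That of CDH5 was lost without any single GFP library, LTR8B untreated replicates 1 or 4 or LTR8B IFNB replicate 4. Over all alternatives the adjusted p reached 0.328 for COL1A1, 0.263 for SPARC and 0.163 for CDH5. These genes were named after their values were seen, and their part in the guide differences of the 8 genes was not tested.

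CCL5 was lower with the LTR8B guide in untreated cells, at 0.896 ± 0.256 CPM (SD, n = 4) against 1.55 ± 0.270 in GFP cells (SD, n = 2), without overlap. The log2 difference was -0.78 (SE 0.27, 95% interval -1.36 to -0.20, edgeR adjusted p = 0.293). With IFNB the levels were 2.37 ± 0.415 and 3.07 ± 0.298 CPM, with overlap, and the log2 difference was -0.37 (95% interval -0.89 to 0.14, edgeR adjusted p = 0.688). The average over the treatments was -0.57 (SE 0.18, edgeR adjusted p = 0.123).

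CXCL8 was higher with the LTR8B guide, in the other direction from CCL5. Untreated it was at 7.92 ± 1.97 CPM in LTR8B (SD, n = 4) and 5.68 ± 1.17 in GFP cells (SD, n = 2), with overlap, and with IFNB at 5.09 ± 1.21 and 3.47 ± 0.757 CPM, without overlap. The log2 difference was 0.46 untreated (SE 0.23, edgeR adjusted p = 0.462), 0.56 with IFNB (SE 0.25, edgeR adjusted p = 0.516) and 0.51 averaged (SE 0.17, 95% interval 0.15 to 0.87, edgeR adjusted p = 0.144).

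With IFNB the other 6 genes differed less between the guides, and the intervals show how large a difference these libraries allow. The log2 difference was -0.04 for CXCL10 (95% interval -0.37 to 0.30), 0.07 for CXCL11 (-0.35 to 0.49), -0.07 for TNFSF13B (-0.41 to 0.27) and -0.07 for IL6 (-0.47 to 0.32), with edgeR adjusted p from 0.927 to 0.963. It was less well bounded for IL15, at 0.20 (-0.32 to 0.72), and for CCL2, at -0.20 (-0.83 to 0.43). Untreated CXCL10 was lower without overlap in LTR8B cells, yet at 3 against 5 counts in all, a ratio of 0.316 with an exact 95% interval of 0.0491 to 1.63, the difference was not detectable at this depth. The same held for CXCL11 (6 against 5 counts, ratio 0.633, exact 95% interval 0.161 to 2.62). Groups without overlap were 2 of 8 lower in untreated cells (CXCL10 and CCL5), against 9.44% of all tested genes, and 1 of 8 higher with IFNB (CXCL8), against 9.6%.

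**Figure D4:**
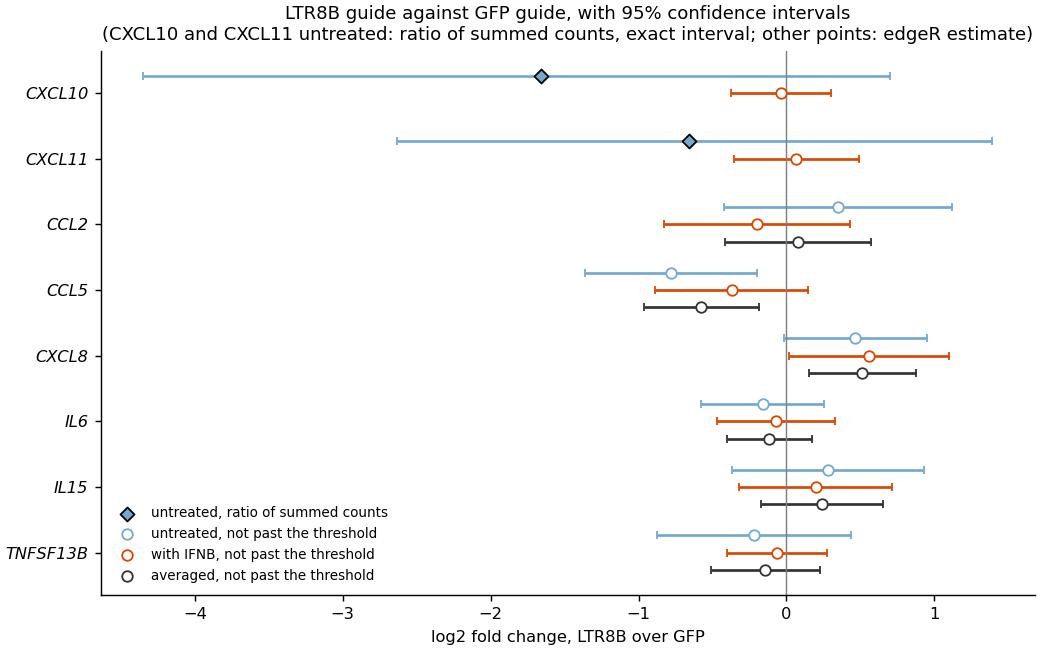
Log2 difference between LTR8B and GFP cells (horizontal axis, with 95% confidence intervals) for the 8 genes, untreated (light blue), with IFNB (orange) and averaged (black). Open circles are edgeR estimates, none of them past the threshold, and diamonds are ratios of summed counts with exact intervals, used for CXCL10 and CXCL11 untreated, for which no average is drawn. With IFNB the estimates run from -0.37 (CCL5) to 0.56 (CXCL8), and the wide untreated intervals of CXCL10 and CXCL11 come from 0 to 3 counts per library.

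The third comparison tested whether the IFNB response itself differed between the lines, as the interaction of guide and treatment. None of the 8 genes passed the threshold (edgeR, 0 at an unadjusted p under 0.05, against 2.98% of all tested genes, DESeq2 0, limma-voom 0), and 0.0% of all tested genes did. The edgeR adjusted p was 0.996 for each of the 8. The difference in log2 response, LTR8B minus GFP, was 0.15 for TNFSF13B (95% interval -0.58 to 0.89), -0.08 for IL15 (-0.90 to 0.74), 0.09 for IL6 (-0.49 to 0.67), 0.09 for CXCL8 (-0.63 to 0.81) and -0.55 for CCL2 (-1.54 to 0.45). For CXCL10 the fitted difference was 1.47 and for CXCL11 0.67, which rest on the 0 to 3 counts of the untreated libraries and are given without an interval.

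Other secreted ligands were read from lists of chemokines and cytokines. Of 41 further chemokine genes 4 entered the test, and 16 had a count of 0 in all 12 libraries, CXCL9 among them, the third ligand of CXCR3. In GFP cells 1 of the 4 was higher past the threshold, CCL3L3 (log2 fold change 2.42, from 0.170 ± 0.0263 to 0.927 ± 0.165 CPM, n = 2 each). Its untreated GFP level lay near that of 3 counts, which is 0.113 and 0.141 CPM in those libraries, so no SE or p is given. Whether CCL3L3 would pass the filter on low counts from the untreated libraries alone was not checked, so its call may follow from the filter. In LTR8B cells 1 rose, CCL3, a ligand of CCR1 (0.78, SE 0.13, edgeR adjusted p = 5.10e-04, from 10.9 ± 2.29 to 18.6 ± 2.13 CPM, n = 4 each). CCL3L3 is a near-identical copy of CCL3, so their reads may be split unevenly and each value is uncertain. The call of CCL3L3 was lost without either GFP untreated library and without GFP IFNB replicate 2. CXCL3, a neutrophil chemokine like CXCL8, had log2 fold changes of -0.52 and -0.58 that did not pass (edgeR adjusted p = 0.711 and 0.508). The median over the 4 was 0.47 in GFP and 0.59 in LTR8B cells, against -0.01 over all tested genes in both. Of all tested genes 3.06% rose past the threshold in GFP and 4.01% in LTR8B cells.

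Of 67 further cytokine genes 26 entered the test, with 2 higher in GFP cells and 4 higher in LTR8B cells, and none lower in either (edgeR, unadjusted p under 0.05 for 4 and 5 of the 26 in either direction, against 11.3% and 12.9% of all tested genes). The share of all tested genes that were higher past the threshold was 3.06% in GFP and 4.01% in LTR8B cells. The median log2 fold change over the 26 was 0.08 and 0.05, against -0.01 over all tested genes. TNFSF10, which encodes the death ligand TRAIL, rose from 0.359 ± 0.0260 to 22.5 ± 1.71 CPM in GFP cells (n = 2 each, log2 fold change 5.96, edgeR adjusted p = 1.59e-09) and from 0.401 ± 0.208 to 19.7 ± 4.08 CPM in LTR8B cells (n = 4 each, 5.53, edgeR adjusted p = 2.42e-11). Whether TNFSF10 would pass the filter on low counts from the untreated libraries alone was not checked, so its calls may follow from the filter. TRAIL belongs to the same ligand family as TNFSF13B. IL7, a lymphocyte survival cytokine that shares a receptor chain with IL15, rose from 2.28 ± 0.0313 to 6.94 ± 0.0345 CPM in GFP cells (log2 fold change 1.60, edgeR adjusted p = 6.67e-05) and from 2.47 ± 0.577 to 6.38 ± 0.497 CPM in LTR8B cells (1.35, edgeR adjusted p = 6.68e-06). IL12A (0.40, edgeR adjusted p = 0.0462) and CSF1 (0.21, edgeR adjusted p = 0.0475) passed in LTR8B cells alone. IL12A lost its call without any single library other than LTR8B IFNB replicate 3 (edgeR adjusted p up to 0.190), and CSF1 without any of 8 single libraries and with limma-voom (adjusted p up to 0.183).

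Of 21 genes for receptors and binding proteins of the 8 ligands, 9 entered the test, and 2 rose in both lines while none fell. Among all tested genes 3.06% rose past the threshold in GFP and 4.01% in LTR8B cells. The median log2 fold change over the 9 was 0.05 in GFP and -0.01 in LTR8B cells, against -0.01 over all tested genes in both. IL15RA, the receptor chain that presents IL15 to neighbouring cells, rose together with its ligand, from 9.09 ± 0.666 to 26.5 ± 4.51 CPM in GFP cells (n = 2 each, log2 fold change 1.54, edgeR adjusted p = 2.79e-07) and from 8.77 ± 0.620 to 26.01 ± 1.94 CPM in LTR8B cells (n = 4 each, 1.57, edgeR adjusted p = 1.42e-09). CCR1, a receptor of CCL5, rose from 1.57 ± 0.184 to 7.52 ± 0.190 CPM in GFP cells (log2 fold change 2.27, edgeR adjusted p = 1.51e-05) and from 1.08 ± 0.332 to 4.64 ± 0.919 CPM in LTR8B cells (2.07, edgeR adjusted p = 1.21e-06). Most receptors of these ligands were at or near 0. CXCR3, CXCR1 and TNFRSF13B had a count of 0 in all 12 libraries, CCR2 had 0 to 2 counts per library, and TNFRSF13C and TNFRSF17, receptors of TNFSF13B, had 3 to 12 and 0 to 4.

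For IL6 the receptor genes were well expressed and did not pass the threshold. IL6R was at 23.7 ± 0.835 CPM without and 17.3 ± 0.516 CPM with IFNB in GFP cells (n = 2 each, log2 fold change -0.45, edgeR adjusted p = 0.127), and at 20.3 ± 3.32 and 17.8 ± 1.02 CPM in LTR8B cells (n = 4 each, -0.18, edgeR adjusted p = 0.533). IL6ST, the signalling chain gp130, was at 287 ± 15.99 and 357 ± 63.8 CPM in GFP and 308 ± 40.2 and 321 ± 38.7 CPM in LTR8B cells. IL2RB, a receptor chain of IL15, was the 1 gene of the chemokine, cytokine, receptor and regulator lists past the threshold in a guide comparison, averaged over the treatments (log2 difference -0.66, SE 0.16, edgeR adjusted p = 0.0370). These lists held 4, 26, 9 and 29 tested genes, and 2.14% of all tested genes passed in the same comparison, so a single call is no excess. It was at 6.86 ± 1.36 and 7.62 ± 1.53 CPM in untreated and treated GFP cells, and at 4.75 ± 1.23 and 4.39 ± 0.816 CPM in LTR8B cells. This call was lost without any single one of 7 libraries, which were both GFP untreated libraries, GFP IFNB replicate 2, LTR8B untreated replicate 4 and LTR8B IFNB replicates 2, 3 and 4, with edgeR adjusted p up to 0.257. The summed leukocyte markers, given above, were also lower in LTR8B than in GFP libraries, and their part in the IL2RB difference was not tested. Of these markers only CSF1R had a mean of at least 1 CPM, and 2 of the 5 tested had a positive averaged guide difference.

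**Figure D5:**
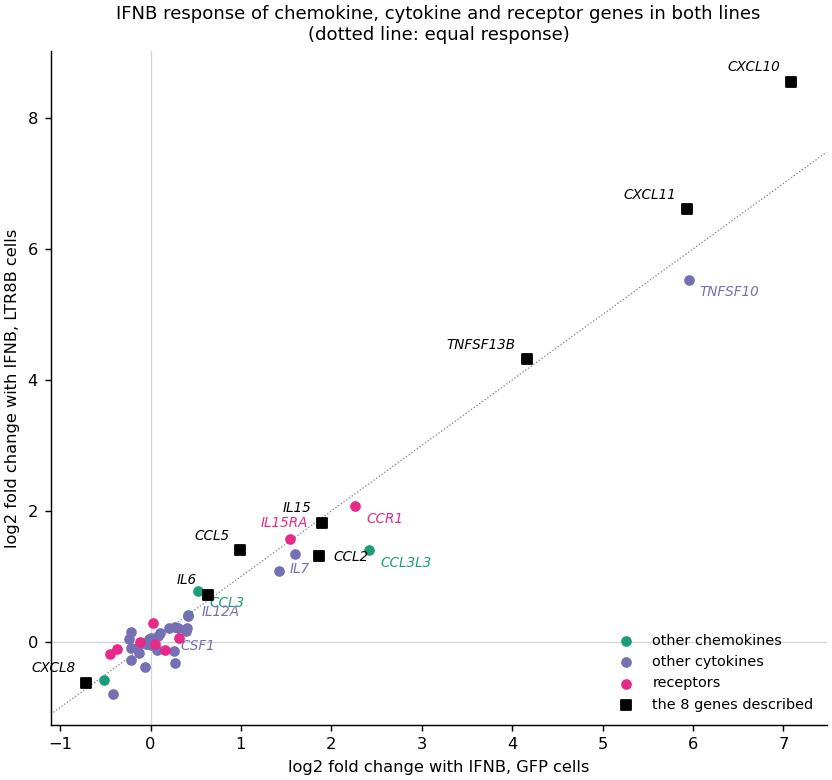
Log2 fold change with IFNB in GFP cells (horizontal axis) and LTR8B cells (vertical axis), edgeR estimates, for the 8 genes described (black squares) and the tested genes of the chemokine (green), cytokine (purple) and receptor (pink) lists, with names for list genes past the threshold in either line. The dotted line marks equal responses. TNFSF10, CCR1, IL7 and IL15RA lie up and to the right among the genes that rose, most other list genes lie near 0 on both axes, and the places of CXCL10 and CXCL11 rest on untreated libraries with 0 to 3 counts.

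Transcription factors and other regulators were read the same way, from a list of 31 genes of interferon and NF-kB signalling with 29 tested. Whether they act on the promoters of the 8 genes was not tested. In GFP cells 7 were higher and none lower, and in LTR8B cells 10 were higher and none lower, with 11 and 13 of the 29 at an unadjusted edgeR p under 0.05. Of all tested genes 3.06% and 4.01% were higher past the threshold, and 11.3% and 12.9% had an unadjusted edgeR p under 0.05. The list was chosen with earlier results of these data known, so its counts describe the choice as well. The median log2 fold change was 0.09 and 0.08, against -0.01 over all tested genes. IRF9, the DNA-binding part of ISGF3, rose from 4.07 ± 0.822 to 119.7 ± 7.21 CPM in GFP cells (n = 2 each, log2 fold change 4.86, edgeR adjusted p = 8.29e-14) and from 4.58 ± 0.655 to 108.7 ± 8.44 CPM in LTR8B cells (n = 4 each, 4.55, edgeR adjusted p = 6.23e-16). STAT2, a partner in that complex, rose by log2 fold changes of 2.31 in GFP and 2.28 in LTR8B cells. IRF1 rose by 1.56 and 1.60, IRF2, which binds the same elements, by 1.15 and 1.19, and STAT3, the main factor downstream of IL6, by 0.36 and 0.39. The call of STAT3 in GFP cells was lost without GFP untreated replicate 1 and without either GFP IFNB library, with edgeR adjusted p up to 0.294.

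The remaining calls were named after their values were seen. ATF3, a stress-induced repressor of inflammatory genes, was higher in both lines (log2 fold change 1.12, edgeR adjusted p = 0.0174 in GFP and 1.15, edgeR adjusted p = 7.77e-04 in LTR8B cells), and its GFP call was lost without any single GFP library (edgeR adjusted p up to 0.195). NFKBIA, the inhibitor of NF-kB (0.29, edgeR adjusted p = 0.0140), CEBPD, a factor of the acute phase (0.50, edgeR adjusted p = 0.0118), and ZFP36, which promotes decay of cytokine mRNAs (0.32, edgeR adjusted p = 0.0313), were higher in LTR8B cells. The call of NFKBIA was lost without LTR8B untreated replicate 4 and without LTR8B IFNB replicates 1 or 3 (edgeR adjusted p up to 0.0634), and that of CEBPD without replicate 1 of either LTR8B group (edgeR adjusted p up to 0.0520). That of ZFP36 was lost without any single LTR8B library other than untreated replicate 4, and also with DESeq2 and without the filter on low counts (adjusted p up to 0.129).

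The genes whose levels followed each of the 8 most closely were found by the Pearson correlation of log2(CPM + 1) over the 12 libraries among 12973 tested genes with a mean of at least 1 CPM. The points share the treatment and the libraries, so for the induced genes the value mostly restates that a gene differs between treated and untreated cells. CXCL10 was closest to IFI6, TRANK1 and IFIT1 (r = 0.999, 0.998 and 0.998), CXCL11 to RIGI, PARP14 and USP18 (r = 0.998 each), and TNFSF13B to IRF2, CACNA1I and IFIH1 (r = 0.998, 0.997 and 0.997). IL15 was closest to CASP8, XRN1 and C1S (r = 0.985, 0.980 and 0.978), CCL2 to BMPR2, LIPA and TOR1AIP1 (r = 0.986, 0.978 and 0.974), and CCL5 to IL4I1, IFITM2 and CXorf38 (r = 0.975, 0.967 and 0.962). IL6 was closest to NFE2L3, C1RL and CSF1 (r = 0.979, 0.963 and 0.960). CXCL8 had the lowest top values, with NRG1, ZNF318 and HEATR5B (r = 0.937, 0.924 and 0.922).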

How the data were processed

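PolyA RNA of 12 HT1080 libraries was sequenced. The authors deposited whole-number counts per gene, made with Salmon 0.13.1, DESeq2 1.38.3 and hg38 per the submitters' processing notes, which give no role or order. A second deposited table was not used. Libraries were grouped by genotype and treatment labels.

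Counts were tested with edgeR 4.0.16 in R 4.3.3 (filterByExpr, minimum count 10 and total 15, TMM scaling, robust quasi-likelihood, 1 mean per group over all 12 libraries, 6 contrasts, Benjamini-Hochberg over 16393 genes). SE is the log2 fold change divided by the square root of the F statistic, which is too small for genes near 0 in a group, so the IFNB response and the untreated guide difference of CXCL10 and CXCL11 have exact count intervals. DESeq2 1.42.0, limma-voom (limma 3.58.1), RLE scaling, no filter, a replicate block and each library left out were alternatives. The script was tested on simulated counts. No replicate pair was a duplicate (chi-square per degree of freedom 2.74 to 17.4). Summaries used Python 3.11.15 with SciPy 1.17.1, NumPy 2.4.6 and pandas 2.3.3, and figures matplotlib 3.10.9.

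The 8 genes and all lists were chosen with earlier results of these data known. Named genes were the 8; SP140; list genes past the threshold, at most 6 by adjusted p; and the 3 closest by correlation. The markers covered mesenchymal, leukocyte, endothelial (2 of 4 with a mean of at least 1 CPM) and epithelial cells (2 of 5). The labels name single and dual index adapters without assigning them, so no library batch was tested. Some genes of these lists are not reported here.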

Additional observations from a re-analysis of the deposited data

Results flagged for a closer look

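Among 16 sets of 4 libraries (8 genes in the LTR8B untreated and LTR8B IFNB groups), 1 held a library that stood apart by Dixon's test. CXCL8 in LTR8B IFNB replicate 4 was at 6.89 CPM, with the nearest library at 4.59 CPM and the lowest at 4.31 CPM, so that the gap took 0.891 of the range, above the 95% critical value. Chance marks about 1 in 20 such sets. The untreated library with the same number was the highest of its group as well, at 10.7 CPM, without passing that test.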

How the results depend on the processing

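Over all alternatives, 805 of 816 values of the 8 genes kept their side of the threshold, 2 lost their call and 9 gained one. The 816 include the guide comparisons and the interaction, where the main fit called none of the 8. They also include the IFNB calls of CXCL10 and CXCL11, which had to differ. Most of the calls gained were of CXCL8. Of the estimates 26 changed sign, none of them past the threshold in either fit. Under RLE scaling all 32 group levels moved by less than 1 SD. For the list genes past the threshold, with the 4 markers in the averaged guide effect, 495 values kept their call and 83 lost it. With the longest coding transcript, 13 of 32 places in the order per kb moved.

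With 1 LTR8B library left out, 5 of the 8 were called with IFNB in GFP cells, among 494 to 594 of all 16393 tested genes. In LTR8B cells 7 to 8 were called, among 603 to 699 of all tested genes. Each count includes CXCL10 and CXCL11, which had to differ, and where it was 8 it includes CXCL8, which was lower. The GFP call of CCL2 depended on single GFP libraries, as given above. None of the 8 passed in a guide comparison or in the interaction. Without the filter on low counts 1 member, CXCL8, passed in the averaged guide effect. Over all genes, edgeR called 59 with the guide in untreated cells, 58 with IFNB, 351 averaged and 0 in the interaction. Without the filter these were 325, 260, 775 and 13, and with DESeq2 159, 120, 554 and 0. With 1 library left out they ranged from 23 to 93, 20 to 68, 100 to 459 and 0 to 1. In the guide comparisons the lowest counts came without replicate 2 of a GFP group, and the highest without LTR8B untreated replicate 2. The highest count with IFNB, 68, was also reached without LTR8B untreated replicate 3. The count of the interaction was highest without GFP untreated replicate 1. For the IFNB response they ranged from 353 to 594 in GFP and 603 to 727 in LTR8B cells. Where a group kept 1 library, it is assumed to vary like the other groups. The cause of these shifts was not tested.

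Same-numbered untreated and IFNB libraries had correlated deviations of 0.278, 0.288, 0.0794 and 0.268 in LTR8B and 0.146 in GFP cells. Pairs with unlike numbers ran from -0.255 to 0.0875 in LTR8B cells. There untreated replicate 3 correlated best with IFNB replicate 4 (0.0875), narrowly above its same-numbered value of 0.0794. As no label pairs the numbers either, they were not taken to pair the samples, and whether they do is not settled. With the replicate block 181 genes passed in the averaged guide effect and 4 in the interaction, and 747 and 1040 with IFNB in GFP and LTR8B cells. CXCL8 then passed in GFP (adjusted p = 0.0113) and LTR8B cells (adjusted p = 9.39e-04, edgeR), CCL5 passed in GFP cells (edgeR adjusted p = 0.0410), and IL2RB no longer passed (edgeR adjusted p = 0.185).

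Depth limits CXCL10 and CXCL11 in untreated cells, where at most 3 counts per library leave the guide effect undetermined. The 2 libraries in each GFP group limit every value of that line.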
